A study of Mus musculus with 40 samples.

Results

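The injured region of the infarcted mouse heart was compared with an uninjured region of the same heart 3 days after a coronary artery had been tied off. The comparison used 8 of the 40 RNA-seq libraries of the study, chosen by their labels: 1 injured and 1 uninjured library from each of 4 mice, labelled A4, A5, A7 and A8. All were adults of the inbred strain C57BL/6 with a permanent ligation of the left anterior descending artery, which feeds much of the left ventricle. Both groups are therefore tissue of an operated heart, and no library of an unoperated or sham-operated heart was analysed here. The other 32 libraries came in the same pairs from 4 mice on each of days 7, 14, 21 and 42, and they were used to estimate the spread and to ask what set day 3 apart. The study as a whole concerned type V collagen in scar tissue. Values are the authors' RPKM (read counts divided by gene length and by a library size). That size did not follow the total of reads worked back from the values, as described below. Unless stated otherwise, the 4 values of a region are given in the order A4, A5, A7 and A8.

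In the days after a coronary artery is closed, dead heart muscle is entered by neutrophils and then by monocytes, which mature into macrophages that take up debris, haem and lipid. Fibroblasts, vessel cells and macrophages divide in the tissue, and a provisional matrix of fibronectin, osteopontin and tenascin is laid down before most of the collagen. Healthy heart muscle is packed with mitochondria and burns mainly fatty acids, so genes of its contractile and oxidative machinery mark the surviving muscle.

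Recovered reads per library ran from 17030371 to 21559259 in the injured and from 21873454 to 24744154 in the uninjured region, with a median of 547 reads per gene and library. The first principal component held 94.8% of the variance of the 8 libraries, and the injured libraries lay on one side of it and the uninjured on the other. Spearman correlations over genes were 0.980 to 0.989 among injured libraries, 0.985 to 0.992 among uninjured libraries and 0.642 to 0.746 between the regions. The 8 cardiomyocyte markers took 1.84% to 3.59% of the reads of injured and 13.9% to 14.2% of those of uninjured tissue, and the mitochondrially encoded genes took 7.66% to 10.9% against 18.2% to 23.3%. Xist, an RNA of female cells, was at 70.8 and 17.7 RPKM in the injured and uninjured library of mouse A4. Ddx3y, of the Y chromosome, was found in both libraries of each other mouse. This fits the pairing of A4 but does not tell the other 3 mice apart. A4 alone had the pattern of a female at day 3, so what set it apart cannot be told from sex. Each later day held mice of both patterns in other proportions, and comparisons of 1 region between days were not adjusted for this. The library size behind the authors' RPKM was not in proportion to the recovered reads. Recovered reads over that size, relative to the injured library of A4, were 0.941 to 1 in injured and 1.55 to 1.75 in uninjured libraries. The step that set this size is not given in the sources used here. On the deposited scale all genes together had a median log2 difference of 0.06. Rescaled to the total of recovered reads, here called total-read scaling, that median was 0.69, and calls of higher genes then made up 78.8% of all calls, against 52.7% as deposited. With that scaling Aco1, Ctsd, Des, Fadd, Il18bp, Lamp1 and Mmp2, described as lower or not passing, passed above 0. C3, Fas, Idh1, Ldha and Timp3, described as lower, took a value above 0 without passing. Acta1, Cxcl9, Gas6, Gata4, Hbb-bs, Hbb-bt, Hmox2, Il11ra1 and Myh7 stayed below 0 without passing, while Comp, Fmod, Ifit2, Ighm, Nppb and Wt1 passed above 0. With quantile normalization of the libraries Acta1, C3, Dcn, Gja5, Hbb-bs, Timp3 and Upk1b did not pass, Dcn with a difference of -0.00028, and Nppb did. Lamp1 and Ldha, described as lower, and Ctsd and Des, described as not passing, then passed above 0 (0.76, 0.36, 0.98 and 1.04). Medians of gene lists moved as well. With total-read scaling they rose by 0.24 to 0.79, with a median rise of 0.69, and with quantile normalization they moved by between -0.26 and 1.14, so that the medians given here hold for the deposited scale. In whole tissue, fewer cells of a type and less RNA per cell cannot be told apart.

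Differences are given as log2(RPKM + 1) in the injured minus the uninjured region of the same mouse, with the standard error of the fit, and a gene was called with limma at an adjusted p under 0.05. A size of at least 1 on this scale is called 2-fold, and the scale understates the change of genes near or below 1 RPKM. Of 11390 genes tested, 44.1% were called higher and 39.6% lower in the injured region, 15.4% and 16.5% by at least 2-fold. The 4 values of a region lay wholly above those of the other for 41.3% (injured higher) and 37.3% (injured lower) of the genes. A call or a gap between the regions was therefore common, and sizes and medians are given beside the counts.

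**Figure D1:**
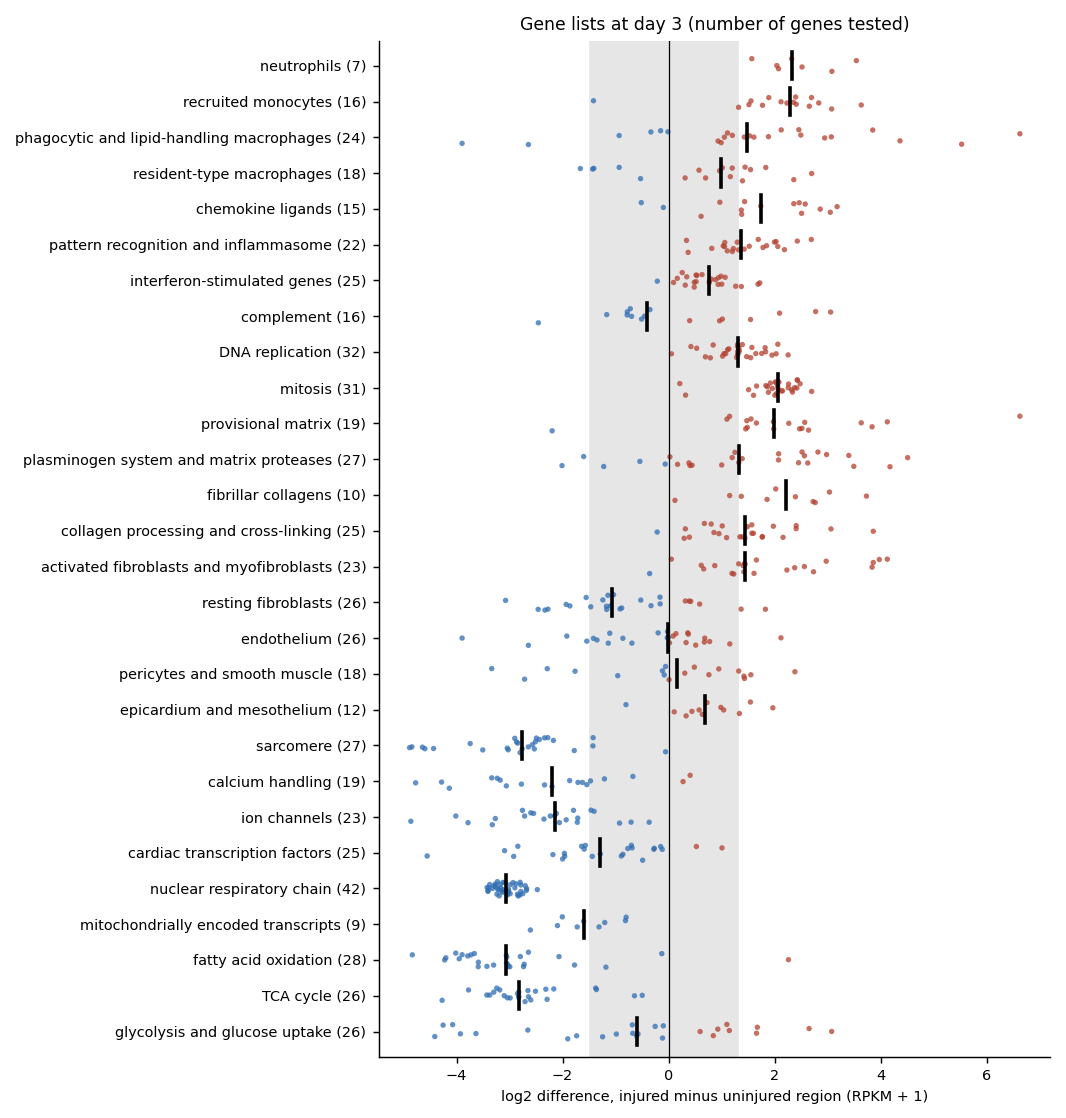
Log2 difference between the injured and the uninjured region at day 3 (x axis, log2(RPKM + 1)) for each tested member (points, red above and blue below 0) of 28 gene lists (rows), with the list's median as a bar. The line at 0 marks no difference, and the grey band spans the middle 80% of all 11390 genes. Every point of the nuclear respiratory chain list lies between -3.42 and -2.48, while the mitosis list has a median of 2.06.

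The largest differences joined myeloid, matrix and muscle genes. Leaving out predicted models and small or ribosomal RNA models, the highest were Spp1, osteopontin (6.63 ± 0.31), Sprr1a (6.19 ± 0.42), Arg1 (5.53 ± 0.34), Hmox1 (4.56 ± 0.22) and Adam8, a metalloproteinase of myeloid cells. Adam8 was at 27.8, 35.9, 51.3 and 38.2 RPKM in the injured and 0.796, 0.434, 0.814 and 0.739 RPKM in the uninjured region. Its 4 uninjured values were below 1 RPKM, and the injured value of A7 was the highest (4.51 ± 0.18, adjusted p = 3.5e-15). Lgals3, galectin-3 of macrophages, was at 91.6, 122, 156 and 106 against 5.38, 3.34, 6.07 and 4.46 RPKM (4.36 ± 0.17), and S100a11, a calcium-binding protein of many cells, at 49.9, 40.5, 24.6 and 35.1 against 2.12, 1.81, 1.75 and 1.59 RPKM (3.73 ± 0.17). For Lgals3 mouse A7 was the highest in both regions, and for S100a11 it was the lowest in injured tissue. Timp1, Fn1, Cthrc1, Lox, Gpnmb, Tnc, Mpeg1 and Col1a1, the others of the 15 highest, are described with their lists. Predicted models reached larger differences, Gm10801 the largest at 7.80 ± 0.76 (4312, 4518, 6681 and 1104 against 23.6, 11.98, 3.74 and 37.6 RPKM). Its difference was 2.88 at day 7. Gm10800 was at 15302, 16255, 23869.6 and 3776 against 111, 53.6, 12.6 and 199.9 RPKM (7.58 ± 0.87) and 2.94 at day 7. In injured tissue A7 was the highest and A8 by far the lowest for both models, and the order of the uninjured libraries was the reverse. Such models carry no named function and can share reads with repeated sequence, so their levels are uncertain.

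At the other end, the lowest was Ces1d, a carboxylesterase that splits lipids, at 0.254, 0.272, 0.159 and 0.779 RPKM in the injured and 58.7, 50.4, 48.3 and 85.9 RPKM in the uninjured region. Each injured value was below 1 RPKM, with mouse A8 the highest in both regions (-5.48 ± 0.20, adjusted p = 3.8e-15). Rpl3l, a ribosomal protein used in place of Rpl3 in striated muscle, was at 1.02, 2.24, 0.896 and 2.41 against 86.4, 88.8, 90.4 and 111 RPKM (-5.21 ± 0.19). Ckm, muscle creatine kinase, was at 13.8, 22.3, 12.6 and 30.8 against 644, 791, 623 and 787 RPKM (-5.17 ± 0.30), and Mb, the oxygen store myoglobin, at 173, 239, 146 and 355 against 7716, 7821, 7167 and 8342 RPKM (-5.17 ± 0.22). For these 4 genes A8 kept the highest and A7 the lowest injured value. Kcnip2, a partner of potassium channels, differed by -4.86 ± 0.15, Fndc5, the precursor of irisin, by -5.03 ± 0.21, Tcap, a cap protein of titin, by -4.89 ± 0.15, and Myl2, the ventricular regulatory light chain, by -4.84 ± 0.21. Cox8b, the muscle form of a cytochrome oxidase subunit, and Fitm1, of lipid droplets, differed by -4.79 ± 0.21 and -4.77 ± 0.13, and Lrtm1, Dhrs7c and Asb14 by -4.94 ± 0.25, -4.94 ± 0.11 and -4.80 ± 0.16. The remaining genes of the 15 lowest, Fabp3 and Hrc, are described with their lists.

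Neutrophils are short-lived white cells that enter injured tissue ahead of other cells. Of 22 listed neutrophil genes 7 could be tested, and all 7 were higher in the injured region (median log2 difference of 2.32). The authors' values held none of the others. Median levels of the 7 in the uninjured libraries were 0.50 to 0.83 as log2(RPKM + 1), below 1 RPKM. A gene below 1 RPKM in all other libraries could pass the filter only through the injured libraries of day 3. The count of higher genes can therefore follow from the filter, and it is no test of a common direction. S100a9, a calcium-binding protein stored in neutrophils, was at 36.0, 9.46, 29.3 and 10.6 RPKM in the injured and 4.27, 1.04, 1.52 and 7.04 RPKM in the uninjured region. The regions did not overlap, but mice A4 and A7 stood well above A5 and A8 in injured tissue (log2 difference of 2.32 ± 0.34, adjusted p = 5.23e-06). Mmp9, a gelatinase of neutrophil granules, was at 6.80, 8.56, 14.1 and 4.63 against 0.414, 0.830, 0.547 and 0.476 RPKM. Here mouse A7 was highest and A8 lowest in injured tissue, and each injured value lay above each uninjured one (2.52 ± 0.13, adjusted p = 2.1e-13). Clec4d, a lectin receptor of neutrophils and monocytes, had the largest difference of the list at 3.54 ± 0.17.

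Genes of recruited monocytes were higher in 15 of 16 cases, 15 of them by at least 2-fold (median of 2.29). Plac8, a gene of inflammatory monocytes, was at 8.82, 10.3, 12.4 and 9.19 RPKM in the injured and 0.440, 0.513, 1.12 and 0.861 RPKM in the uninjured region. The groups lay apart (2.70 ± 0.11, adjusted p = 5.38e-15). Chil3, a chitinase-like protein of the same cells, was at 15.1, 13.2, 11.4 and 9.26 against 0.741, 0.30003, 0.548 and 0.649 RPKM (3.08 ± 0.09). Its uninjured values were all below 1 RPKM, and mouse A4 had the highest injured value. The 1 lower gene, Ly6c1 (-1.42 ± 0.13), is also made by endothelial cells.

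Macrophage genes were followed in 2 lists. Of 24 genes of phagocytic and lipid-handling macrophages, 18 were higher and 4 lower. Mpeg1, a pore-forming protein of macrophages, was at 82.9, 107, 122 and 91.5 RPKM in the injured and 6.43, 5.64, 7.32 and 7.04 RPKM in the uninjured region. Every injured value was more than 10 times every uninjured one (3.73 ± 0.13, adjusted p = 6.28e-16). Gpnmb, a glycoprotein of macrophages that digest lipid, was at 13.9, 25.4, 32.5 and 18.6 against 0.684, 0.234, 0.534 and 0.880 RPKM (3.85 ± 0.22), with A7 highest and A4 lowest in injured tissue. Its difference was larger at day 7 (5.59), as was that of the lipid receptor Trem2 (2.46 at day 3 and 3.31 at day 7, a change of -0.86 ± 0.17 and adjusted p = 0.000297). The 4 lower genes were Lpl (-3.90 ± 0.19), Cd36 (-2.64 ± 0.15), Gas6 (-0.93 ± 0.09) and Lamp1 (-0.33 ± 0.08, and 0.45 with total-read scaling). Lpl and Cd36, which release and take up fatty acids, are also strongly expressed in heart muscle and its capillaries.

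Genes of resident-type macrophages were higher in 13 and lower in 5 of 18 cases. The scavenger receptor Stab1 was higher (1.83 ± 0.12). Cd163, the haemoglobin scavenger receptor of resident macrophages, went the other way, at 1.08, 1.002, 0.657 and 0.925 RPKM in the injured and 5.92, 4.96, 4.45 and 4.99 RPKM in the uninjured region. All 4 injured values lay below all uninjured ones (-1.67 ± 0.11, adjusted p = 8.16e-12), and Lyve1, the hyaluronan receptor, was also lower (-1.43 ± 0.22). Of 8 dendritic cell genes 7 were higher, led by the integrin gene Itgax (2.49 ± 0.11), and Cd74, the chaperone of antigen presentation, differed by 1.21 ± 0.18. Only 2 of 21 lymphocyte genes could be tested. Il7r, the interleukin-7 receptor, was higher (2.65 ± 0.14) and Ighm, an immunoglobulin heavy chain, did not pass (0.07 ± 0.31, adjusted p = 0.842). With so few genes, the share of lymphocytes in the tissue was not tested.

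Chemokine ligands, the secreted proteins that draw white cells, were higher in 13 and lower in 1 of 15 cases, with a median of 1.74. Of 27 listed ligands the authors' values held only these 15. As for neutrophil genes, a ligand below 1 RPKM in all other libraries could pass the filter only through the injured libraries of day 3. The count is therefore no test of a common direction. Ccl2, the main attractant of monocytes, was at 46.5, 51.6, 80.0 and 46.2 RPKM in the injured and 5.59, 5.83, 6.42 and 5.09 RPKM in the uninjured region. Mouse A7 had the highest value of each region and the groups did not overlap (3.05 ± 0.22, adjusted p = 8.19e-11). Ccl7, a ligand of the same receptor, was at 38.6, 45.5, 71.6 and 43.5 against 2.78, 5.03, 6.39 and 4.28 RPKM (3.18 ± 0.23), again with A7 highest in both regions. At day 7 the differences of Ccl2 and Ccl7 were 0.38 and 0.61, and against the mean of all later days day 3 stood 2.90 ± 0.24 and 2.82 ± 0.25 higher (adjusted p = 6.11e-09 and 1.56e-08). Cxcl5, a neutrophil attractant, was at 13.5, 9.45, 16.1 and 10.1 against 0.751, 0.204, 0.720 and 1.84 RPKM (2.86 ± 0.19), with no overlap. The macrophage-derived Ccl9 and Ccl6 differed by 2.58 ± 0.10 and 2.51 ± 0.12. Pf4 and Ppbp, chemokines stored in platelets and also made by macrophages, were at 71.1, 103, 107 and 99.6 against 14.2, 18.0, 20.6 and 17.6 RPKM and at 8.47, 9.74, 12.4 and 12.8 against 0.764, 2.01, 1.19 and 0.748 RPKM. Neither gene's regions overlapped (2.36 ± 0.15 and 2.46 ± 0.17), while at day 7 their differences were -0.09 and -0.32. The ligand that was lower was Cxcl9, an interferon-induced attractant of T cells (-0.52 ± 0.16, adjusted p = 0.00675).

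Among chemokine receptors, 7 of 10 were higher. Ccr1, a receptor of monocytes and neutrophils, was at 15.2, 17.9, 23.0 and 15.3 RPKM in the injured and 1.69, 1.90, 2.54 and 1.76 RPKM in the uninjured region. All injured values exceeded all uninjured ones (2.65 ± 0.15), and the difference had shrunk to 0.58 at day 7 (a change of 2.07 ± 0.21, adjusted p = 1.06e-07). Cxcr6 differed by 2.995 ± 0.16. The 2 lower receptors, Ackr3 (-1.52 ± 0.13) and Ackr4 (-1.002 ± 0.13), are atypical receptors that bind chemokines and clear them.

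Of 24 genes of interleukin-1, interleukin-6 and TNF signalling, 20 were higher and 3 lower. Il1b, the cytokine released by inflammasomes, was at 8.62, 8.31, 14.2 and 5.78 RPKM in the injured and 0.968, 1.23, 0.547 and 1.63 RPKM in the uninjured region. The groups lay apart, with A7 highest and A8 lowest in injured tissue (2.25 ± 0.23, adjusted p = 1.47e-08). Its receptor Il1r1 and its natural antagonist Il1rn were higher as well (2.04 ± 0.08 and 1.58 ± 0.08). The TNF receptor Tnfrsf1b differed by 2.49 ± 0.09. The 3 lower genes were Lifr (-1.40 ± 0.08) and Il11ra1 (-0.83 ± 0.11), receptors of the interleukin-6 family, and Il18bp (-0.40 ± 0.09), which neutralises interleukin-18.

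All 22 genes of pattern recognition were higher, 19 by at least 2-fold. Tlr13, a receptor of ribosomal RNA from bacteria, was at 14.01, 17.4, 21.4 and 17.4 against 1.53, 1.88, 2.47 and 1.59 RPKM (2.69 ± 0.10). The adaptor genes Fcer1g and Tyrobp, which pass on signals of many myeloid receptors, differed by 2.43 ± 0.13 and 2.06 ± 0.14. Tlr4 had the smallest difference of the list (0.34 ± 0.10, adjusted p = 0.00403), its groups overlapped, and without mouse A8 it did not pass (0.22, adjusted p = 0.0626). Interferon-stimulated genes were higher in 22 of 25 cases, but only 6 by at least 2-fold (median of 0.77). Isg15, a ubiquitin-like protein, was at 11.3, 10.1, 7.69 and 16.0 RPKM in the injured and 2.36, 2.88, 3.09 and 2.23 RPKM in the uninjured region. Mouse A8 had the highest injured value, and it was the highest injured library for 19 of the 25 genes. Mx1, an antiviral GTPase, differed by 1.69 ± 0.14, and Ifit2 did not pass (0.16 ± 0.17, adjusted p = 0.388).

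Complement genes were split, with 7 higher and 8 lower of 16 (median of -0.40 as deposited, and 0.28 with total-read scaling). Receptors of the activation fragments were higher: C3ar1 was at 29.9, 34.0, 38.6 and 32.5 RPKM in the injured and 2.99, 3.20, 3.61 and 2.88 RPKM in the uninjured region. Injured values were about 10 times the uninjured ones in each mouse (3.06 ± 0.08), and C5ar1 differed by 2.77 ± 0.10. C3 itself was at 45.7, 25.3, 46.5 and 25.7 against 65.3, 56.7, 51.7 and 56.5 RPKM, lower in each injured library than in its partner (-0.72 ± 0.21, adjusted p = 0.00299, and 0.0505 with total-read scaling). On day 7 that difference was 1.88, and day 3 minus the mean of the later days was -3.41 ± 0.23 (adjusted p = 1.85e-10). The membrane regulator Cd59a was the lowest of the list (-2.46 ± 0.09).

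Genes of cell division were higher in the injured region almost without exception: 31 of 32 DNA replication genes and 30 of 31 mitosis genes, with medians of 1.30 and 2.06. The replication genes are known to be switched on by E2F factors in late G1 phase, and many mitosis genes by a complex that binds the cell cycle homology region, CHR. The 6 windows that follow are shown because they come from the list members with the largest differences among those that carry such a motif, in capitals. They are 100 bases long, lie within the 250 bases before the RefSeq start site, and are written 5′ to 3′ on the gene's strand (RefSeq, GRCm38.p6). E2F motifs were searched as TTTCCCGC and TTTGGCGC, CHR as TTTGAA and the CCAAT box as CCAAT, each on both strands, from 250 bases before to 50 after the start, and matches of different motifs could overlap.
Cdc6 (E2F; chr11:98907967-98908066, plus strand): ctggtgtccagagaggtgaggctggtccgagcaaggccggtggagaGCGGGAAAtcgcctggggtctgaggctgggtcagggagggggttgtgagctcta
Mcm7 (E2F; chr5:138171995-138172094, minus strand): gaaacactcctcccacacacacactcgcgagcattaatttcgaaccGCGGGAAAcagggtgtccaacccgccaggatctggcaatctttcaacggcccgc
Mcm5 (E2F; chr8:75109314-75109413, plus strand): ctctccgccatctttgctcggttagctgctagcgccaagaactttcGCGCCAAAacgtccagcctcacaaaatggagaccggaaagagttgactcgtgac
Mcm6 (E2F; chr1:128359762-128359861, minus strand): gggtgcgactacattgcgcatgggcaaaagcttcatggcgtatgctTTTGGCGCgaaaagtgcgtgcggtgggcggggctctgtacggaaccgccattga
Mki67 (CHR; chr7:135716442-135716541, minus strand): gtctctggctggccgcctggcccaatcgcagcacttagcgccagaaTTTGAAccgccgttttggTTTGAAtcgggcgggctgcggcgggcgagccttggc
Top2a (CHR; chr11:99024315-99024414, minus strand): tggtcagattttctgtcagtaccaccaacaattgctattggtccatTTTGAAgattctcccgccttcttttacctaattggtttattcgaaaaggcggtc

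Either E2F spelling was found in 9 of 25 replication promoters (36%) against 3.47% of the 8550 promoters of tested genes. CHR letters were in 20 of 26 mitosis promoters (76.9%) against 14.1%, and a CCAAT box in 20 of 26 (76.9%) against 42.5%. Among genes called at least 2-fold higher, 4.93% held an E2F spelling and 17.2% CHR letters, and among those at least 2-fold lower 1.82% and 14.4%. A match describes these letters only and is not shown to be a bound site.

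Mki67, a chromosome coat protein of dividing cells whose promoter window holds the letters TTTGAA at 2 places, was at 36.5, 43.4, 38.2 and 36.1 RPKM in the injured and 5.03, 6.23, 8.04 and 2.45 RPKM in the uninjured region. The injured values were close together, and the uninjured ones ran from lowest in A8 to highest in A7 (2.70 ± 0.18, adjusted p = 2.76e-11). Top2a, the topoisomerase that untangles sister chromosomes, was at 21.3, 24.7, 23.1 and 25.4 against 3.12, 4.39, 6.46 and 1.63 RPKM (2.43 ± 0.22), and the mitotic kinase gene Cdk1 at 9.55, 11.7, 11.3 and 13.3 against 0.924, 1.42, 3.26 and 0.633 RPKM (2.38 ± 0.22). Neither overlapped, and both had the same order of uninjured mice at the ends, A7 on top and A8 at the bottom. Over the mitosis list the uninjured library of A7 was the highest for 29 genes and that of A8 the lowest for 25, against 2320 and 2719 of all 11390 genes. In injured tissue A4 was the lowest for 28 of the 31.

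Of the replication genes, E2f1, itself a target of E2F factors, was at 4.78, 5.76, 4.60 and 3.69 RPKM in the injured and 0.262, 0.448, 0.520 and 0.336 RPKM in the uninjured region. The uninjured values were all below 1 RPKM (2.03 ± 0.10, adjusted p = 7.32e-14). Mcm5, a subunit of the replicative helicase, was at 11.1, 13.5, 13.05 and 11.7 against 1.96, 3.72, 3.52 and 1.22 RPKM (1.95 ± 0.16), and Rrm2, the regulated subunit of ribonucleotide reductase, at 10.1, 11.95, 11.2 and 12.03 against 1.33, 1.67, 2.42 and 1.08 RPKM (2.25 ± 0.25). Both were separate between the regions. The excess at day 3 exceeded that of day 7 for 32 of 32 replication and 31 of 31 mitosis genes, where 22.1% of all genes were called in that direction. It exceeded the mean of days 7 to 42 for 32 and 31 of them, against 31.6% of all genes. For Mki67 and Top2a the day 7 differences were -0.28 and -0.52.

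**Figure D2:**
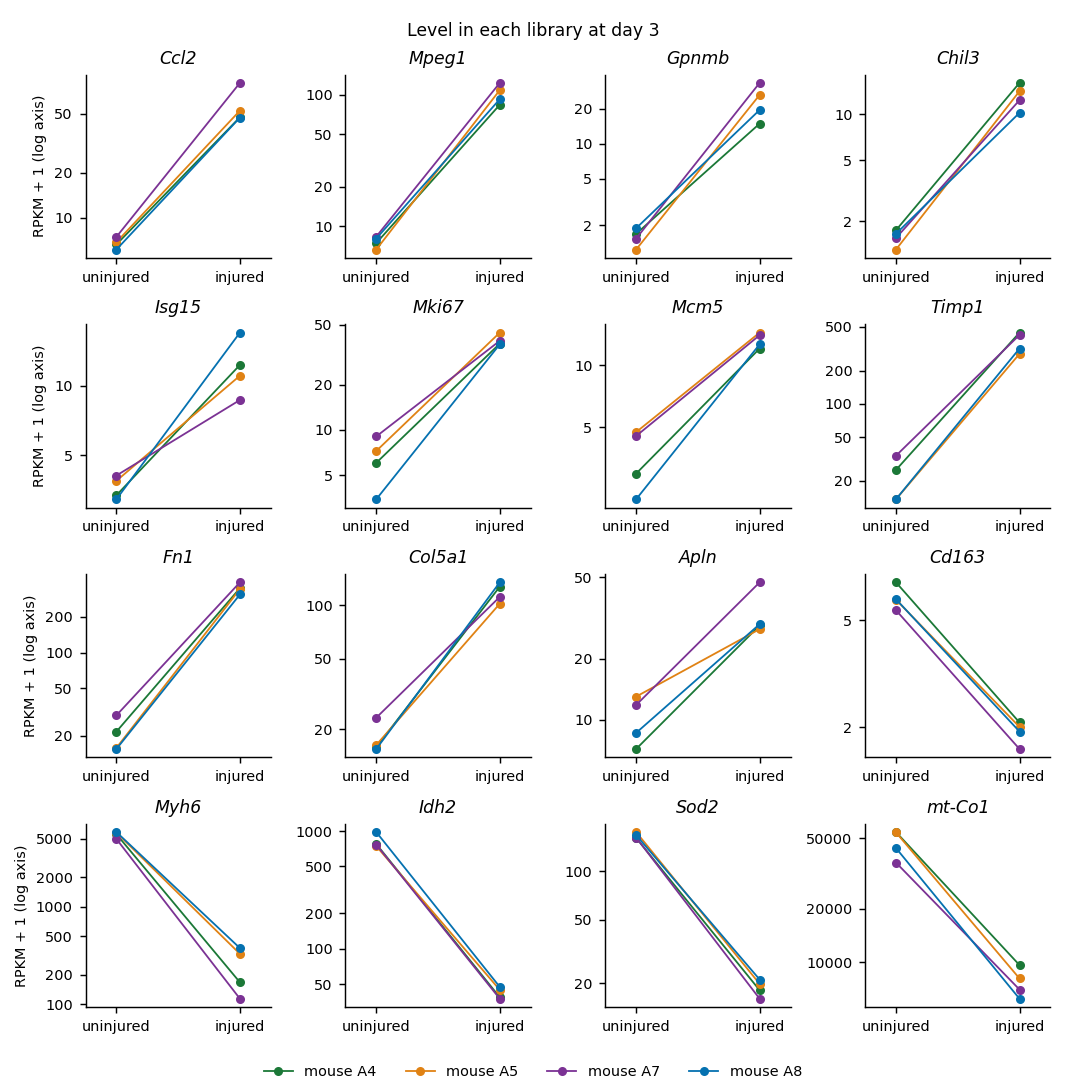
RPKM + 1 (log axis) of 16 genes in the 8 libraries of day 3, 1 panel per gene, with uninjured and injured values of a mouse joined by a line. The lines of all 4 mice run the same way in each panel, upward for genes such as Ccl2, Mki67 and Timp1 and downward for Cd163, Myh6, Idh2, Sod2 and mt-Co1.

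Provisional matrix genes were higher in 18 of 19 cases (median of 1.98). Fibronectin, Fn1, was at 348, 342, 389.9 and 308 RPKM in the injured and 20.6, 14.8, 28.6 and 14.4 RPKM in the uninjured region. Mouse A7 had the highest value in both regions (4.13 ± 0.23, adjusted p = 1.26e-12). Tnc, tenascin C of wound matrix, was at 155, 182, 121 and 221 against 14.8, 6.47, 23.6 and 5.36 RPKM (3.84 ± 0.38), and Thbs1, which activates latent TGF-beta, at 153, 133, 135 and 106 against 9.72, 9.93, 12.4 and 7.11 RPKM (3.63 ± 0.28). For Tnc the uninjured values of A4 and A7 were more than 2 times those of A5 and A8. The 1 lower gene was Vtn, vitronectin (-2.20 ± 0.09). Among 15 provisional matrix promoters 1 held the AP-1 letters TGACTCA, against 4.70% of all.

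Proteases and their inhibitors were higher in 20 and lower in 4 of 27 cases. Timp1, an inhibitor of metalloproteinases, was at 442, 283, 421 and 317 RPKM in the injured and 24.1, 12.6, 32.8 and 12.6 RPKM in the uninjured region. In each region A4 and A7 were above A5 and A8 (4.18 ± 0.27, adjusted p = 2.57e-11). The plasminogen activator gene Plau and its receptor Plaur differed by 2.56 ± 0.13 and 2.45 ± 0.13. Adamts4, which cleaves versican and aggrecan, was at 18.1, 18.5, 25.3 and 19.6 against 0.701, 0.961, 1.497 and 0.959 RPKM (3.40 ± 0.10), and its excess was 2.41 ± 0.11 above the mean of later days (adjusted p = 8e-13). The 4 lower genes were Timp4 (-2.01 ± 0.24), Mmp15 (-1.60 ± 0.11), Adamts15 (-1.22 ± 0.10) and Timp3 (-0.54 ± 0.13, and 0.21 with total-read scaling). Mmp2, a gelatinase of fibroblasts, was at 26.0, 17.9, 17.6 and 19.0 against 21.1, 22.4, 19.9 and 20.1 RPKM and did not pass (-0.06 ± 0.14, adjusted p = 0.675, and 0.69 with total-read scaling), whereas at day 7 its difference was 2.63. 

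Of 10 fibrillar collagen genes, which form the fibrils of the scar, 9 were higher (median of 2.21). Col1a1 was at 615, 409.8, 445 and 578 RPKM in the injured and 33.1, 29.3, 60.0 and 32.2 RPKM in the uninjured region. Mouse A4 was highest and A5 lowest in injured tissue, and A7 was highest in uninjured tissue (3.73 ± 0.31, adjusted p = 1.02e-09). The type V chain Col5a1 was at 127, 101, 111 and 134 against 14.8, 15.3, 22.2 and 14.4 RPKM (2.77 ± 0.20) and Col5a2 at 124, 104, 123 and 120.0 against 16.8, 16.6, 23.9 and 12.2 RPKM (2.73 ± 0.19). Over the 10 genes the injured library of A4 was highest for 8 and that of A5 lowest for 9. The 1 gene that did not pass was Col2a1 of cartilage, at 0.0717, 0.107, 0.113 and 0.0659 against 0, 0, 0 and 0.0104 RPKM (0.12 ± 0.18, adjusted p = 0.536), and it passed with voom on the recovered reads (3.83, adjusted p = 5.23e-05). The collagen excess was below that of day 7 for 8 of the 10 genes, where 23.8% of all genes were called in that direction (on reads without the mitochondrially encoded genes, calls of a larger difference at day 3 made up 75.7% of all calls against day 7, and as deposited 48.1%).

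Enzymes of collagen processing were higher in 24 of 25 cases, among them the cross-linking enzyme genes Lox (3.86 ± 0.20), Loxl3 (3.06 ± 0.15) and Loxl2 (2.41 ± 0.22) and the prolyl hydroxylase gene P4ha3 (2.41 ± 0.12). Basement membrane genes were mixed, with 10 higher and 7 lower of 21. Col18a1, Col15a1 and Nid2 differed by 2.80 ± 0.12, 2.23 ± 0.19 and 1.64 ± 0.09. Lamb2, a laminin chain, was lower (-1.58 ± 0.11), as were the type IV chains Col4a3 and Col4a4 (-0.49 ± 0.10 and -0.81 ± 0.09), while Col4a1 and Col4a2 were higher (1.19 ± 0.15 and 1.25 ± 0.13).

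Genes of activated fibroblasts and myofibroblasts were higher in 21 of 23 cases (median of 1.44). Genes of resting fibroblasts were lower in 18 and higher in 6 of 26 cases (median of -1.07). Cthrc1, secreted by fibroblasts that lay down collagen, was at 58.4, 49.5, 45.3 and 60.4 RPKM in the injured and 3.65, 1.43, 3.83 and 1.56 RPKM in the uninjured region. Injured values were close together, and A4 and A7 were higher than the other mice in uninjured tissue (3.97 ± 0.31). Postn, periostin, was at 135, 153, 98.9 and 193 against 55.0, 47.3, 64.5 and 22.2 RPKM (1.66 ± 0.43, adjusted p = 0.00174), and Acta2, smooth muscle actin of myofibroblasts and vessels, at 213, 237, 166 and 220.0 against 80.2, 108, 76.8 and 69.0 RPKM (1.32 ± 0.21). The groups of both lay apart. Dcn, a collagen-binding proteoglycan of resting fibroblasts, was at 173, 139, 153 and 143 against 400.1, 364, 300.3 and 315 RPKM (-1.17 ± 0.14), and Pi16, a marker of adventitial fibroblasts, at 2.66, 2.27, 2.35 and 3.02 against 20.6, 19.5, 18.1 and 16.5 RPKM (-2.46 ± 0.22). Each injured value of these genes was below each uninjured one. Tnxb and the transporter gene Abca8a were also lower (-2.28 ± 0.21 and -2.33 ± 0.12), whereas the lineage genes Pdgfra and Tcf21 were higher (0.59 ± 0.09 and 0.42 ± 0.10). The day 3 difference of resting fibroblast genes was below the mean of later days in 21 of 26 cases, against 31.2% of all genes.

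Of 40 growth factor and receptor genes, 33 were higher and 6 lower. Tgfb1, the TGF-beta made by white cells and platelets, was at 14.6, 14.2, 15.2 and 12.2 RPKM in the injured and 2.11, 2.24, 2.36 and 2.18 RPKM in the uninjured region. The spread within each region was small beside the gap between them (2.22 ± 0.10, adjusted p = 9.99e-15). Its relatives Tgfb2 and Tgfb3 differed by 1.78 ± 0.15 and 1.27 ± 0.14. Csf2ra, the receptor chain for GM-CSF, led the list (3.06 ± 0.12), followed by the activin chain Inhba (2.92 ± 0.13) and the stress cytokine Gdf15 (2.91 ± 0.25).

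Endothelial genes had no common direction. Of 26, 9 were higher and 11 lower, and the median of -0.01 became 0.08 with quantile normalization, 0.07 without mouse A5 and 0.71 with total-read scaling. Pecam1, an adhesion molecule of all endothelium, was at 42.1, 51.0, 51.9 and 52.6 RPKM in the injured and 36.7, 41.4, 36.0 and 37.5 RPKM in the uninjured region (0.37 ± 0.08, adjusted p = 0.000131). The injured values lay above the uninjured ones at day 3, and at day 7 the difference was -1.10. Plvap, of fenestrated and sprouting vessels, differed by 2.12 ± 0.12. Aqp1, a water channel of capillaries, was lower (-1.92 ± 0.19), as were Lpl and Cd36, given with the macrophage list. The day 3 difference exceeded the mean of later days in 21 of 26 endothelial genes, against 31.6% of all genes.

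Of 22 genes of vessel sprouting, 14 were higher and 7 lower. Apln, a peptide of tip cells, was at 28.1, 26.9, 46.2 and 28.5 RPKM in the injured and 6.20, 12.01, 10.8 and 7.64 RPKM in the uninjured region. The groups did not overlap (1.72 ± 0.18), and the difference turned over by day 7 (-1.54, a change of 3.26 ± 0.25 and adjusted p = 4.42e-09). The chemokine receptor gene Cxcr4 was higher (2.26 ± 0.22). Angiogenic ligands made by heart muscle were lower: Vegfa was at 25.9, 25.8, 35.7 and 22.5 against 66.6, 62.7, 59.9 and 67.2 RPKM (-1.21 ± 0.13, adjusted p = 1.64e-08) and Angpt1, which steadies vessels, at 2.96, 1.76, 1.79 and 1.91 against 25.7, 20.9, 31.4 and 30.1 RPKM (-3.17 ± 0.13). Vegfb, which acts on fatty acid uptake of vessels, was lower as well (-2.57 ± 0.18). Lymphatic genes were split, with 3 higher and 3 lower of 7 (median of -0.35, and 0.17 with total-read scaling). Pdpn, a glycoprotein also of activated fibroblasts, was higher (2.38 ± 0.14), and Prox1, the lymphatic master regulator that heart muscle also expresses, was lower (-2.23 ± 0.14).

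Pericyte and smooth muscle genes were higher in 9 and lower in 5 of 18 cases. Rgs5, a marker of pericytes, was at 37.1, 40.6, 36.2 and 55.1 RPKM in the injured and 231, 203, 182 and 217 RPKM in the uninjured region. The highest injured value lay far below the lowest uninjured one (-2.29 ± 0.11, adjusted p = 6.2e-14). Abcc9 and Kcnj8, which together form the potassium channel of pericytes and are also expressed in heart muscle, were lower (-2.72 ± 0.11 and -1.76 ± 0.11). Pdgfrb, the growth factor receptor of pericytes, and Cspg4 were higher (0.95 ± 0.08 and 0.49 ± 0.11).

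Most heart muscle genes were lower in the injured region. Of 27 sarcomere genes 26 were lower, 26 by at least 2-fold (median of -2.76). Myh6, the main myosin of the adult mouse ventricle, was at 167, 327, 113 and 375 RPKM in the injured and 5544, 5759, 4949 and 5824 RPKM in the uninjured region. Injured libraries of A4 and A7 held less than those of A5 and A8, and no values overlapped (-4.64 ± 0.28, adjusted p = 1.57e-12). Tnni3, cardiac troponin I, was at 73.7, 120.4, 56.8 and 132 against 2202, 2405, 1951 and 2311 RPKM (-4.60 ± 0.21). Myh7, the slow myosin that returns under load, was at 18.7, 13.2, 31.6 and 18.8 against 57.8, 64.1, 80.0 and 29.3 RPKM (-1.42 ± 0.38, adjusted p = 0.00186), and its groups overlapped through the uninjured value of A8. The gene that did not pass was Des, desmin of the intermediate filaments that link sarcomeres, at 539, 439.9, 388 and 539 against 523, 502, 472 and 471 RPKM. Its levels overlapped and were alike in size in the 2 regions (-0.06 ± 0.18, adjusted p = 0.772, with 0.73 under total-read scaling and 1.04 under quantile normalization). Over this list the injured library of A7 was the lowest for 26 of 27 genes and that of A8 the highest for 21.

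Calcium handling genes were lower in 17 of 19 cases. Hrc, the histidine-rich calcium store protein, was at 6.41, 9.38, 4.68 and 12.4 RPKM in the injured and 257, 229, 204 and 266 RPKM in the uninjured region (-4.77 ± 0.27). The calcium pump gene Atp2a2 and its regulator Pln differed by -4.14 ± 0.19 and -4.28 ± 0.20. Sri, which binds calcium and tunes its release, was among the higher genes (0.27 ± 0.05). All 23 ion channel genes were lower, 20 by at least 2-fold. Kcnj3, a potassium channel subunit richest in atrial muscle, was at 0.867, 1.04, 0.340 and 1.002 against 33.6, 24.9, 24.8 and 29.1 RPKM (-4.01 ± 0.11). Its values lay far apart between the regions. Scn4b, a beta subunit of sodium channels, differed by -3.27 ± 0.19.

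At the intercalated disc, which couples muscle cells, 17 of 21 genes were lower, led by Ctnna3 (-2.84 ± 0.13) and Bves (-2.84 ± 0.15). Xirp2, an actin-binding protein of the disc, was at 393, 298, 256 and 334 RPKM in the injured and 185, 177, 169 and 137 RPKM in the uninjured region. It was higher in each injured library (0.93 ± 0.27, adjusted p = 0.0041), as were Gja5 (0.59 ± 0.14), a connexin also of arteries, and Vcl (0.35 ± 0.07), vinculin of many cell types. The difference of Xirp2 at day 7 was -0.46. Of 21 heart stress and fetal genes, 11 were higher and 6 lower (median of 0.33). Nppa, atrial natriuretic peptide, was at 1219, 1045, 1026 and 1033 against 300.4, 306, 453 and 113 RPKM (2.04 ± 0.30), and Sprr1a, a cornified envelope protein induced in stressed muscle, at 301, 268, 142 and 174 against 2.68, 1.55, 3.51 and 0.696 RPKM (6.19 ± 0.42). Nppb, the related peptide gene, did not pass (0.33 ± 0.24, adjusted p = 0.199) but did without mouse A5 (0.67, adjusted p = 0.0151).

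Of 25 cardiac transcription factors, 20 were lower. Hopx, a cofactor of heart muscle, was at 4.83, 4.27, 4.36 and 6.17 RPKM in the injured and 121, 138, 127 and 165 RPKM in the uninjured region (-4.55 ± 0.18). Ppara and Ppargc1a, which drive fatty acid use and mitochondrial genes, differed by -3.09 ± 0.09 and -2.84 ± 0.12, and Klf15 by -2.92 ± 0.15. Nkx2-5, Tbx5 and Gata4, which define the lineage, differed by -1.57 ± 0.14, -1.44 ± 0.11 and -0.86 ± 0.10. The 2 higher genes were Ppard (1.01 ± 0.10) and Nrf1 (0.52 ± 0.08), both broadly expressed.

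Genes of energy metabolism were lower as well. All 42 nuclear genes of the respiratory chain were lower by at least 2-fold, within a narrow span of -3.42 to -2.48 around a median of -3.08, while the median of all genes was 0.06. Ndufb9 of complex I was at 83.0, 109, 84.0 and 105 RPKM in the injured and 998, 1084, 961 and 1058 RPKM in the uninjured region (-3.42 ± 0.13, adjusted p = 1.08e-15). All 26 TCA cycle genes were lower too, with Idh2, a mitochondrial dehydrogenase, at 37.8, 43.8, 36.7 and 46.5 against 774, 744, 766 and 979 RPKM (-4.27 ± 0.15). Smallest in that list were the cytosolic enzymes Aco1 (-0.50 ± 0.06) and Idh1 (-0.64 ± 0.11), which were at 0.24 and 0.12 with total-read scaling. Fatty acid oxidation genes were lower in 26 of 28 cases (median of -3.06). Fabp3, the fatty acid carrier of heart muscle, was at 53.5, 77.0, 35.7 and 78.4 against 1609, 1798, 1701 and 1667 RPKM (-4.83 ± 0.23). The 1 higher gene was Angptl4, which inhibits lipoprotein lipase, at 26.2, 26.2, 40.8 and 23.6 against 2.09, 4.59, 10.3 and 6.37 RPKM (2.26 ± 0.23). Its injured values lay above all uninjured ones.

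Transcripts encoded in the mitochondrial genome were lower in 9 of 9 cases, but less so (median of -1.60). The catalytic subunit mt-Co1 was at 9639, 8101, 7017 and 6227 RPKM in the injured and 54233, 53997, 36478 and 44058 RPKM in the uninjured region (-2.61 ± 0.22). The day 3 difference of these genes stood above that of day 7 in 9 of 9 cases, against 22.1% of all genes. For mt-Co1 it was -3.92 at day 7, a change of 1.31 ± 0.31 (adjusted p = 0.00163). The nuclear genes stood above day 7 in 2 and below it in 1 of 42 cases.

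The promoter of Atp5g3, a subunit of ATP synthase, is shown because 2 of 30 respiratory chain promoters, against 0.316% of all, held the letters TCAAGGTCA of the oestrogen-related receptors, factors known to drive mitochondrial genes in muscle. Its window is given on the gene's strand (RefSeq, GRCm38.p6; chr2:73911327-73911426, minus strand), with these letters, on the other strand, in capitals.
Atp5g3: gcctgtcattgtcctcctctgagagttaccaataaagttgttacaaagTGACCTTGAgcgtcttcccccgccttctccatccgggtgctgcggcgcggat
Atp5g3 was at 37.5, 41.8, 33.4 and 52.1 RPKM in the injured and 285, 321, 371 and 379 RPKM in the uninjured region, with no overlap (-3.02 ± 0.14). Among all genes called at least 2-fold higher 0.485% held these letters, and among those at least 2-fold lower 0.490%. In other lists, 1 of 15 provisional matrix, 1 of 14 ion channel and 1 of 21 lysosomal promoters held them. They were in 0 of 24 TCA cycle and 0 of 22 fatty acid oxidation promoters. The match is a description of the letters.

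Many heart muscle proteins have a close relative used by other tissues, and 20 such pairs are given. For lactate dehydrogenase, Ldhb was set as the muscle gene and Ldha as its relative. The muscle gene was lower in 20 of 20 pairs, and its relative was higher in 13 and lower in 5. The log2 ratio within a library, in which a common factor per library nearly cancels, was lower in the injured region in 4 of 4 mice for each of the 20 pairs. Quantile normalization, which is no common factor, moved 11 of the 20 mean differences by more than their SD over mice, and all then lay between -6.63 and -1.76. For the glucose transporters Slc2a4 and Slc2a1 the ratio was -2.01, -1.24, -2.52 and -0.84 in the injured and 4.14, 4.43, 4.60 and 4.48 in the uninjured region, a mean difference of -6.07 ± 0.78 (SD, n = 4). Slc2a4, the insulin-regulated form, differed by -4.41 ± 0.15 and Slc2a1, the form of most cells, by 1.66 ± 0.13. For the enolases Eno3 and Eno1 the ratio was 0.77, 0.94, -0.06 and 1.11 against 6.27, 6.01, 5.87 and 6.21 (-5.40 ± 0.40), and for the alpha-actinins Actn2 and Actn1 it was 0.18, 0.11, -0.47 and 0.32 against 5.63, 5.71, 5.37 and 5.59 (-5.54 ± 0.24). In both pairs the relative was higher, by 1.14 ± 0.10 for Eno1 and 2.97 ± 0.12 for Actn1. Other relatives were lower, among them Ldha (-0.68 ± 0.11, and 0.10 with total-read scaling) and Cox7a2 (-2.90 ± 0.12). The smallest ratio change was that of Cox7a1 to Cox7a2 (-1.71 ± 0.31).

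**Figure D3:**
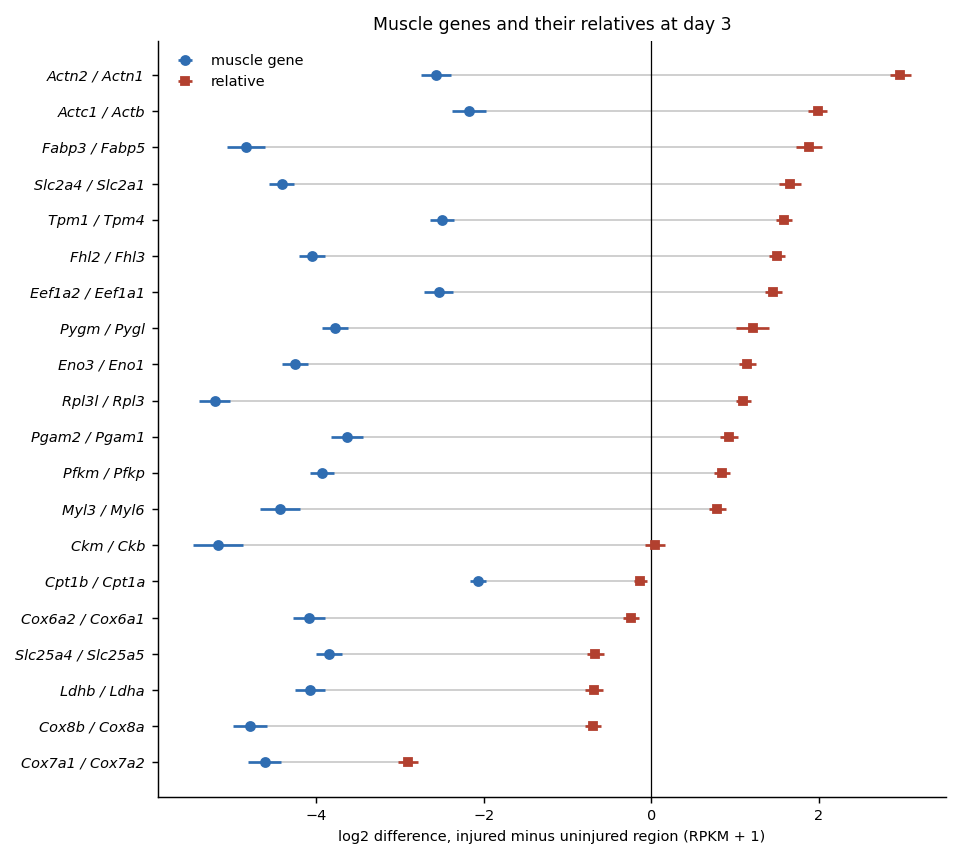
Log2 difference between the injured and the uninjured region at day 3 (x axis, log2(RPKM + 1), bars are standard errors) for the muscle gene and its relative in 20 pairs (rows). Every muscle gene lies left of 0, and 13 of the 20 relatives were called to the right of 0.

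Glycolysis and glucose uptake as a whole had 9 genes higher and 14 lower of 26, with a median of -0.59 that became 0.15 with quantile normalization and 0.19 with total-read scaling. Of 20 pentose phosphate and nucleotide genes 12 were higher and 8 lower (median of 0.41). G6pdx, the entry enzyme of the oxidative branch that makes NADPH, was at 13.5, 13.96, 15.2 and 11.7 RPKM in the injured and 3.55, 3.62, 3.53 and 3.24 RPKM in the uninjured region (1.70 ± 0.08), and Pgd and Tkt of the same pathway differed by 1.69 ± 0.09 and 1.69 ± 0.09. The lactate exporter gene Slc16a3 was at 13.2, 11.1, 20.5 and 11.2 against 0.598, 0.634, 1.03 and 0.680 RPKM (3.08 ± 0.11, adjusted p = 5.69e-16). Mouse A7 was highest in both regions. The hypoxia list that holds it was split, with 11 higher and 7 lower of 21, and the oxygen sensor Egln1 and the kinase Pdk1 were lower (-2.05 ± 0.12 and -1.76 ± 0.14).

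Haem and iron genes were higher in 14 and lower in 9 of 26 cases. Hmox1, which breaks down haem, was at 210.1, 296, 333 and 322 RPKM in the injured and 14.4, 9.13, 12.9 and 9.04 RPKM in the uninjured region. Its constitutive relative Hmox2 was lower (-0.78 ± 0.09), while Hmox1 differed by 4.56 ± 0.22. Slc11a1, an iron transporter of phagosomes, was higher (2.77 ± 0.11). Among oxidant defence genes, the mitochondrial dismutase gene Sod2 was at 17.1, 18.8, 15.02 and 20.1 against 161, 175, 162 and 168 RPKM (-3.16 ± 0.11), and Nqo1 was lower too (-2.67 ± 0.14). The haemoglobin genes Hbb-bs and Hbb-bt were lower (-1.01 ± 0.26 and -1.15 ± 0.20), and Hba-a1 did not pass (-0.32 ± 0.28, adjusted p = 0.282).

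Of 24 genes of the unfolded protein and amino acid response, 17 were higher and 6 lower. Psat1, an enzyme of serine synthesis, was at 5.69, 6.15, 6.62 and 5.93 RPKM in the injured and 0.912, 1.38, 1.96 and 0.982 RPKM in the uninjured region (1.64 ± 0.09). Mthfd2, of mitochondrial folate metabolism, differed by 1.65 ± 0.11. Herpud1, which helps degrade misfolded proteins, was lower in each mouse, at 21.6, 18.6, 18.8 and 19.6 against 114, 74.2, 74.2 and 90.1 RPKM (-2.09 ± 0.12). Of 22 genes of cell death, 18 were higher, 13 by at least 2-fold. Ripk3, the kinase of necroptosis, was at 9.34, 12.5, 14.4 and 12.8 against 1.49, 1.83, 2.63 and 1.40 RPKM (2.23 ± 0.12, adjusted p = 1.53e-13). Bax and the cell cycle inhibitor gene Cdkn1a differed by 1.35 ± 0.11 and 1.95 ± 0.15. The 2 lower genes were Fas (-0.68 ± 0.13) and Fadd (-0.39 ± 0.07), which act at the death receptor and were at 0.0158 and 0.19 with total-read scaling.

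Genes of the actin and phagocytic cytoskeleton were higher in 28 of 29 cases, led by Plek (2.71 ± 0.10) and Tmsb10 (2.70 ± 0.09). Lysosomal genes were higher in 21 and lower in 3 of 28 cases. Ctss, a cathepsin of antigen-presenting cells, was at 201, 281, 326 and 242 RPKM in the injured and 33.6, 28.9, 33.0 and 29.6 RPKM in the uninjured region (3.01 ± 0.13). Ctsd, a cathepsin found in nearly all cells, did not pass (-0.01 ± 0.13, adjusted p = 0.929, and 0.78 with total-read scaling). Of 20 immediate early genes 13 were higher and 5 lower. The growth regulator Myc was at 13.8, 12.4, 12.5 and 10.3 against 1.43, 1.34, 1.08 and 1.13 RPKM (2.56 ± 0.11, adjusted p = 6.07e-15). Values were close within each region. Fos, at 10.4, 11.1, 12.3 and 8.53 against 10.5, 7.17, 5.22 and 5.43 RPKM, overlapped between the regions (0.56 ± 0.21, adjusted p = 0.0179) and did not pass without mouse A7 (0.37, adjusted p = 0.137) or without the mouse as a block (adjusted p = 0.138). 

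What set day 3 apart was asked by subtracting the mean region difference of days 7, 14, 21 and 42, from other mice, from that of day 3. It was larger at day 3 for 31.6% and smaller for 31.2% of all genes, and by at least 1 on the log2 scale for 5.07% and 4.64%. The tests against day 7 and against all later days share the day 3 libraries, and their values are given side by side. Arg1, the arginase of wound macrophages, stood furthest above the later days, at 78.9, 95.1, 184 and 67.0 RPKM in the injured and 0.948, 0.516, 2.52 and 1.06 RPKM in the uninjured region. Its difference of 5.53 at day 3 was 3.18 at day 7 and 0.24 at day 14 (day 3 minus later, 4.27 ± 0.38, adjusted p = 3.69e-08). Mest, an imprinted gene of growing mesoderm, was at 27.0, 23.9, 29.7 and 31.1 against 2.55, 3.39, 3.80 and 1.97 RPKM (2.90 ± 0.17), with a difference of -0.38 at day 7 and -0.53 at day 42 (3.27 ± 0.19). Acta1, skeletal alpha-actin, was at 56.8, 72.9, 41.5 and 115 against 167, 309.9, 209 and 99.5 RPKM. Its regions overlapped at day 3 (-1.43 ± 0.48, adjusted p = 0.0107), whereas at day 42 the difference was -5.15, so day 3 stood above the later days by 3.13 ± 0.54. The region difference of Acta1 at day 3 did not pass without mouse A5 or without A7 (adjusted p = 0.0541 and 0.0678). The remaining genes of the 10 furthest above were Hmox1, Chil3, Ccl2, Pf4, Ppbp, Ccl7 and Ccl6, at 3.56, 2.92, 2.90, 2.84, 2.84, 2.82 and 2.79.

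Among the 10 genes furthest below the later days were secreted matrix proteins. Comp, a cartilage matrix protein that binds collagen, was at 2.16, 1.99, 2.28 and 1.45 RPKM in the injured and 1.18, 0.733, 0.737 and 1.07 RPKM in the uninjured region. It did not pass at day 3 (0.62 ± 0.37, adjusted p = 0.129). It passed with a pseudocount of 0.1 (adjusted p = 0.0366) and with the libraries of day 3 alone (adjusted p = 0.00071). The 4 injured values lay above the 4 uninjured ones all the same, and at day 7 the difference was 5.83 (day 3 minus later, -5.36 ± 0.42). Fbln1, a fibulin, was at 10.98, 6.91, 8.66 and 8.31 against 22.8, 16.9, 15.8 and 20.2 RPKM, lower in every injured library (-1.04 ± 0.11). Cytl1 and Myoc, secreted proteins, were close to 0 in injured tissue, with 1 Myoc value listed at 0, at 0.0815, 0.0339, 0.0358 and 0.166 against 3.62, 3.30, 3.01 and 5.49 RPKM and 0.0208, 0.0172, 0 and 0.0635 against 2.09, 1.65, 1.39 and 2.07 RPKM (-2.14 ± 0.22 and -1.44 ± 0.20). At day 42 their differences were 3.09 and 4.07. Eln, elastin, was at 4.95, 4.11, 2.84 and 3.84 against 3.56, 6.22, 6.06 and 3.31 RPKM and did not pass at day 3 (-0.21 ± 0.24, adjusted p = 0.425). Its regions overlapped, whereas at day 7 the difference was 3.94 (day 3 minus later, -4.05 ± 0.27). The others of the 10 were Fmod, a collagen-binding proteoglycan, Angptl7, Abi3bp, Col8a2 and Prelp, at -4.66, -4.44, -4.24, -4.06 and -3.97.

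**Figure D4:**
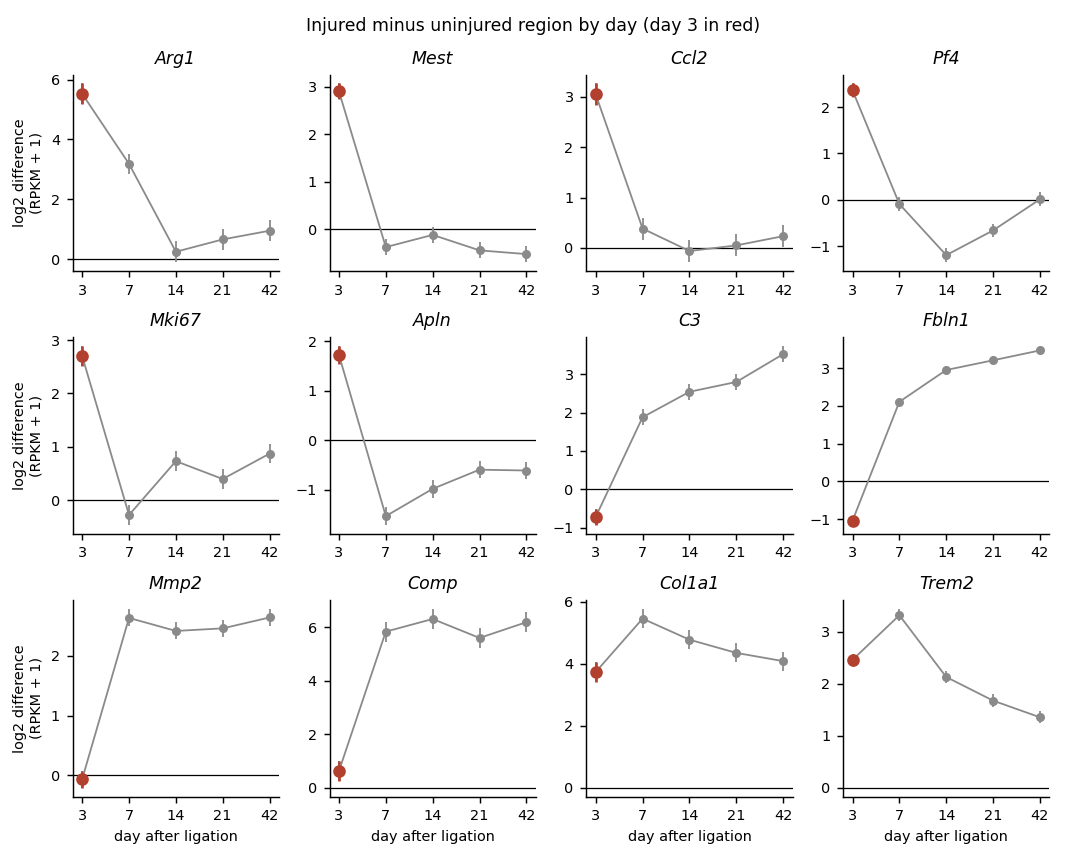
Log2 difference between the injured and the uninjured region (y axis, log2(RPKM + 1), bars are standard errors of the fit) on days 3, 7, 14, 21 and 42 (x axis, evenly spaced) for 12 genes, 1 panel per gene. Arg1, Mest, Ccl2, Pf4, Mki67 and Apln are highest at day 3, and C3, Fbln1, Mmp2, Comp and Col1a1 are lower at day 3 than on any later day, while Trem2 peaks at day 7.

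The median difference of a list was followed by day. For mitosis genes it was 2.06 at day 3 and -0.26, 0.24, -0.13 and 0.21 on the later days. For chemokine ligands it was 1.74 at day 3, then 0.56, -0.19, 0.048 and 0.55 on days 7, 14, 21 and 42. The limit that the filter sets on the ligand genes, given above, holds for these medians too. Fibrillar collagens went from 2.21 to 3.57 at day 7, and resting fibroblast genes from -1.07 to 0.53 at day 7 and 1.42 at day 42. The nuclear respiratory chain stood at -3.08, -3.23 and -2.35 on days 3, 7 and 42. Only the day 42 mice carry B labels. What the letter stands for is not given in the sources used here, and anything it marks cannot be told apart from the day there.

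**Figure D5:**
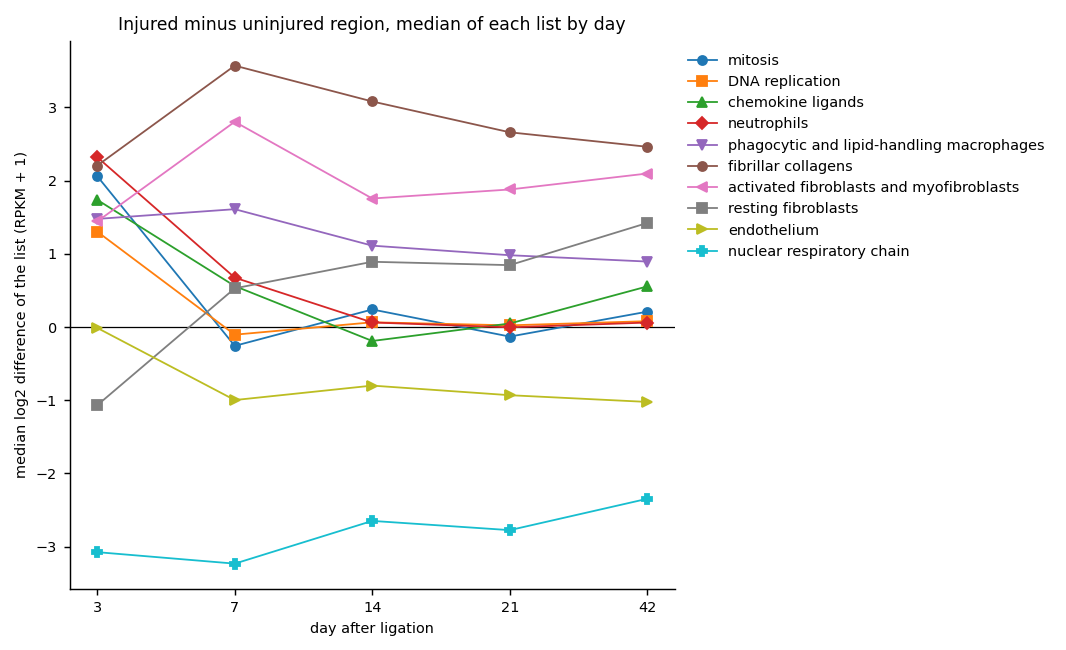
Median log2 difference between the injured and the uninjured region (y axis, log2(RPKM + 1)) of the members of 10 gene lists on days 3, 7, 14, 21 and 42 (x axis, evenly spaced). The lines of mitosis, DNA replication and chemokine ligands drop after day 3, that of resting fibroblasts climbs from below 0 at day 3, and the nuclear respiratory chain stays below -2 throughout.

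The uninjured region also differed at day 3 from its own later days, over the 20 uninjured libraries. Day 3 was higher for 8.34% and lower for 6.73% of the genes, or 950 and 767, but by a log2 value of at least 1 only for 0.114% and 0.123%, or 13 and 14 genes. The counts fell when any 1 mouse of day 3 was left out, from 1717 calls in all to 1224, 1422, 1024 and 813 without A4, A5, A7 and A8. Without the uninjured library of A7 they were 596 and 428, and without that of A8 432 and 381. A smaller group also gives fewer calls, and the part of single mice was not tested. Spp1, osteopontin, was at 12.3, 2.34, 11.9 and 9.61 RPKM in uninjured tissue of day 3, against 2.09 ± 0.358 (SD, n = 4) at day 7 and 0.491 ± 0.160 at day 14 (2.06 ± 0.30, adjusted p = 0.000411). Its injured values were 644, 795, 1356 and 831 RPKM. Tnc and Col1a1 stood 1.92 ± 0.29 and 1.42 ± 0.36 above later uninjured tissue (adjusted p = 0.000552 and 0.0143), and Ccl2 and S100a8 1.04 ± 0.13 and 1.04 ± 0.19. Lower at day 3 were Nppa (-1.27 ± 0.36, adjusted p = 0.0243) and Acta1 (-1.25 ± 0.32, adjusted p = 0.0143), the first a gene with a higher and the second a gene with a lower level in the injured region.

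The mice differed by gene group. In injured tissue A7 had the highest value for 24 of 29 actin and phagocytic genes, 20 of 28 lysosomal genes and 17 of 24 phagocytic macrophage genes, and the lowest value for 18 of 19 calcium handling genes. Over all 11390 genes A7 was the highest for 3452 and the lowest for 3160. In uninjured tissue it was the highest for 20 of 25 collagen processing genes as well as for the mitosis genes given above. Its cardiomyocyte markers took the smallest share of reads in injured tissue, 1.84%, and the part of that share in these orders was not tested. Endothelial genes were highest in the injured library of A8 for 17 of 26 and lowest in that of A4 for 18.

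Mesothelial genes, of the cells that line the heart's surface, separated the mice in another way. Krt19, a keratin of such cells, was at 5.50, 1.83, 4.80 and 1.63 RPKM in the injured and 0.480, 0.909, 0.562 and 0.571 RPKM in the uninjured region, and Upk1b at 5.89, 0.324, 4.97 and 1.86 against 1.04, 0.800, 0.674 and 0.423 RPKM. In injured tissue A4 and A7 were high and A5 and A8 low for both, and the regions of Upk1b overlapped (1.04 ± 0.39, adjusted p = 0.0204). Upk1b did not pass without mouse A4, without A7 or without the mouse as a block (adjusted p = 0.11, 0.117 and 0.0606). Of the 12 genes of epicardium and mesothelium, A4 was the highest injured library for 8 and A5 the lowest for 8, against 2953 and 2358 of all 11390 genes. The summed level of the 12 genes was 84.2, 51.2, 79.8 and 50.1 RPKM in the injured and 29.4, 30.9, 35.8 and 24.4 RPKM in the uninjured region, and 7 of the genes were higher and 1 lower. The part of surface tissue in these values was not tested. Such an order of the mice was not particular to this list. In injured tissue A4 was also the highest for 8 and A5 the lowest for 9 of 10 fibrillar collagen genes. S100a9 and Timp1, given above, had A4 and A7 above A5 and A8 there as well. Wt1, a transcription factor of the epicardium, did not pass (0.11 ± 0.16, adjusted p = 0.541). Of 13 genes of Schwann cells and neurons 3 could be tested, and Mbp, a myelin gene, was at 1.64, 1.59, 2.63 and 1.53 against 0.356, 0.518, 0.532 and 0.490 RPKM (0.94 ± 0.09).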

How the data were processed

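RNA-seq of 8 libraries, an injured and an uninjured region from each of 4 mice at day 3, was analysed, and the 32 libraries of later days entered the fits. Per the labels' protocols, RNeasy Mini columns gave total RNA and a TruSeq kit the libraries. Per the submitters' processing notes the tools were STAR and edgeR and the genome build mm10, with no version or role. For the annotation and the counting rule, nothing is given in the sources used here. The authors deposited RPKM values for 11450 genes. For 100% of the values the RPKM steps gave whole reads within 0.01, and these reads served for depth and as an alternative.

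Genes with at least 1 RPKM in at least 4 of the 40 libraries were tested on log2(RPKM + 1) with limma 3.58.1 (R 4.3.3, trend and robust moderation, mouse as a fixed block, all 40 libraries), with Benjamini-Hochberg adjustment over 11390 genes and a threshold of 0.05. The script was tested on simulated data in which few genes changed, as many up as down. That simulation held no difference in scale between the regions, so it cannot speak to the choice of scaling. Day 3 was also compared with day 7 and with the mean of days 7, 14, 21 and 42, and each region with its own later days over 20 libraries. The day 3 animals pair the libraries by design, and the deviations of paired libraries from their group means correlated at 0.159 to 0.439 over genes. Each mouse gave 1 library per region. For region differences, p-values measure how the within-mouse difference varied between mice, pooled over all days (15 residual degrees of freedom). For 1 region over days, they measure the spread between mice of the same day.

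The gene lists, and the comparison itself, were chosen with earlier results of these data known. Named genes were the 15 highest and 15 lowest differences, the first 4 and the 4 largest of each list and up to 4 members against its majority, the 10 highest and 10 lowest of day 3 minus later, the muscle genes with their relatives, and the 5 genes that varied most among the injured libraries. Apln, C3, Des, Gm10800, Gm10801 and Mmp2 were chosen after their values were seen, and Cdc6, Mcm6, Mcm7 and Atp5g3 for their promoters. A few genes that the rule names are not reported here. RefSeq promoters (GRCm38.p6) were matched by symbol for 8550 of the tested genes. Alternatives changed the block, pseudocount, filter, scaling, moderation and mice, and most list medians moved with the scaling.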

Additional observations from a re-analysis of the deposited data

Results flagged for a closer look

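Among the 4 values of a region, 1 mouse stood apart for 13 of 190 sets of values examined (6.84%), by Dixon's 95% limit on the gap to the nearest other value. For independent sets chance gives about 1 in 20. The sets here share the same mice, and some genes were chosen after their values were seen. That rate is therefore only a rough guide. In injured tissue, mouse A7 was the highest for Apln (46.2 RPKM), Ccl2 (79.96 RPKM), Angptl4 (40.8 RPKM) and Mbp (2.63 RPKM) and the lowest for Tnnt3 (4.08 RPKM). Mouse A4 was the highest for Angpt1 (2.96 RPKM) and Nppa (1219 RPKM) and the lowest for Pecam1 (42.1 RPKM). In uninjured tissue, mouse A7 was the highest for Col1a1 (60.0 RPKM) and Col5a1 (22.2 RPKM), and A8 for Idh2 (979 RPKM), for Rpl3l (111.1 RPKM) and for Col2a1 (0.0104 RPKM, the other 3 values being 0).

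For 9 genes whose library values are printed, the region difference at day 3 had the opposite sign on each of the 4 later days, and day 3 minus the mean of later days was at least 2 in size and passed with limma. It was above 0 for Mest (3.27, adjusted p = 2.25e-11), Ppbp (2.84, adjusted p = 2.4e-10), Apln (2.65, adjusted p = 7.43e-10) and Rrm2 (2.46, adjusted p = 4.81e-07). It was below 0 for Fbln1 (-3.97, adjusted p = 5.3e-15), Myoc (-3.81, adjusted p = 3.63e-11), C3 (-3.41, adjusted p = 1.85e-10), Pi16 (-3.08, adjusted p = 2.33e-09) and Dcn (-2.27, adjusted p = 1.98e-10).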

How the results depend on the processing

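The counts of genes called in the day 3 region comparison, 5021 higher and 4513 lower, stayed within 1.5 times under each change of block, pseudocount, filter and moderation, with quantile normalization or equal library medians, and without any 1 mouse (4806 to 4922 higher and 4344 to 4401 lower). Without the replicate block they were 4939 and 4438, with a random mouse effect 5051 and 4526, and with voom on the recovered reads 5022 and 4509. Scaled to the total of recovered reads they were 8031 and 2159, by at least 2-fold 3974 and 961, and the uninjured region then had 547 genes higher at day 3 than later. On the total without the mitochondrially encoded genes, an alternative chosen after seeing the data, as was voom, 7445 genes were higher and 2656 lower. By at least 2-fold they were 3254 and 1139. The region difference was larger at day 3 than at day 7 for 4700 genes and smaller for 1506. Uninjured tissue at day 3 against later days had 596 and 428 calls without mouse A7 and 432 and 381 without A8, a range of 432 to 817 higher and 381 to 605 lower over the 4 mice. The replicate block ended or made no call among the genes named other than those of Col8a2, Ddx3y, Fos and Upk1b, and with the libraries of day 3 alone Col2a1, Comp and Fmod passed and Upk1b did not.

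Among genes named, the sign differed from the deposited scale for 16 with total-read scaling, 11 on the total without the mitochondrially encoded genes, 9 with quantile normalization, 1 with voom and 1 to 4 without 1 mouse. Those that passed the threshold on either scale were, with total-read scaling, Abi3bp 0.51, Aco1 0.24, C3 0.0505, Ctsd 0.78, Des 0.73, Fadd 0.19, Fas 0.0158, Idh1 0.12, Il18bp 0.23, Lamp1 0.45, Ldha 0.10, Mmp2 0.69, Prelp 0.0032 and Timp3 0.21. On the total without the mitochondrially encoded genes they were Aco1 0.0518, Ctsd 0.58, Des 0.53, Fadd 0.0459, Il18bp 0.0665, Lamp1 0.25, Mmp2 0.50 and Timp3 0.0217, and with quantile normalization Ctsd 0.98, Des 1.04, Lamp1 0.76 and Ldha 0.36. Of these, Abi3bp, Aco1, Ctsd, Des, Fadd, Il18bp, Lamp1 and Mmp2 passed above 0 with total-read scaling. Without the mitochondrially encoded genes Ctsd, Des, Lamp1 and Mmp2 did, and with quantile normalization Ctsd, Des, Lamp1 and Ldha. Of 52 list medians, 50, 48, 32 and 25 moved by more than their SD over mice with total-read scaling, without the mitochondrially encoded genes, with quantile normalization and with a pseudocount of 0.1, and 26 with voom. Under the first 3 of these scales 6, 4 and 3 changed sign. The 4 mice a group, and a scale that turns on how libraries are normalized when muscle reads fill much of the uninjured libraries, limit what small differences can show.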

Other observations

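Collagens that form networks, beads and microfibrils, not described above, were higher in 9 of 10 cases at day 3. Col12a1, which sits on the surface of fibrils, was at 24.2, 18.3, 17.3 and 21.4 RPKM in the injured and 1.51, 1.28, 1.97 and 0.831 RPKM in the uninjured region, and Col8a1, a short-chain collagen of vessels, at 81.1, 74.4, 65.0 and 77.4 against 19.1, 20.03, 24.6 and 9.90 RPKM. Neither overlapped (3.16 ± 0.27 and 2.02 ± 0.25). The lower gene was Col6a6 (-1.42 ± 0.12). For 10 of the 10 the day 3 difference was smaller than that of day 7, where 23.8% of all genes were called in that direction.

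Lists of cells and tissues that a heart piece could also hold had few genes that could be tested. Of 10 red blood cell genes 5 could be tested, 3 of them lower (median of -0.43, and 0.13 with total-read scaling), with a summed level of 70.0 to 135 RPKM in the injured and 164 to 206 RPKM in the uninjured region. Of 12 adipocyte genes 4 could be tested, 3 of them lower, at 59.9 to 80.0 against 189 to 213 RPKM in sum. Of 18 skeletal muscle genes 4 could be tested. Tnnt3, fast troponin T, was the 1 that was higher, at 6.42, 6.10, 4.08 and 6.32 against 0.643, 0.481, 0.282 and 0.354 RPKM (2.21 ± 0.11). The other 3 were Ckm, Myl1 and Acta1, which heart muscle also expresses. Of 8 atrial genes 4 could be tested, with Nppa and Dkk3 higher (1.11 ± 0.29 for Dkk3) and Kcnj3 and Stard10 lower (-1.70 ± 0.12 for Stard10). Of 10 lung genes only Hopx, which heart muscle also expresses, could be tested. Of 12 genes of mast cells and platelets 3 could be tested, Ppbp, Pf4 and Kit, and each was higher (1.67 ± 0.08 for Kit).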
